A study of Homo sapiens with 20 samples.

Results

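The 10 genes described here encode BCL2 family proteins, the regulators of the mitochondrial pathway of apoptosis: BMF, BCL2L11, BBC3, PMAIP1, BIK, BID, BAX, BCL2, BCL2L1 and MCL1. They were taken by name from the 23368 genes of the count tables, and all 10 were present. The group was partly selected on measured values: BMF was chosen by its log2 change between KLF10 knockdown and control siRNA in Panc1 cells, one of the largest rises there. Every value from that contrast is therefore given as a description with no test. After the filter on low counts, 9 of the 10 were tested in Panc1 and all 10 in A549. BIK was the exception in Panc1, with 14 reads in total over 12 libraries.

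Proteins of this family decide whether the outer mitochondrial membrane is opened and cytochrome c is released. BCL2, BCL2L1 (BCL-xL) and MCL1 hold the membrane closed, effectors such as BAX open it, and BH3-only proteins either block the guardians or activate the effectors. BMF (held on the cytoskeleton by a dynein light chain), BCL2L11 (BIM), BBC3 (PUMA), PMAIP1 (NOXA), BIK and BID are BH3-only proteins. In epithelial cells BMF and BIM are known mediators of the death that follows TGFβ treatment or loss of attachment, and MCL1 is a short-lived guardian whose level depends on continued synthesis.

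The study measured poly(A) RNA by sequencing in 2 human lines, Panc1 (from a pancreatic ductal carcinoma) and A549 (from a lung adenocarcinoma), to ask how the zinc-finger factor KLF10, itself induced by TGFβ, shapes the response to TGFβ. Each line had 4 groups: control siRNA (siCont), control siRNA with TGFβ at 5 ng/ml for 72 hours (TGFb), siRNA against KLF10 (siKLF10), and siKLF10 with the same TGFβ treatment (siKLF10+TGFb). Panc1 had 3 libraries a group and A549 had 2, lettered A, B and C. The labels do not say that libraries of a group are separate cultures. The p-values therefore reflect only library-to-library spread, possibly technical. The labels list both lines as immortalized with SV40 large T antigen, and the timing of the siRNA is not given there.

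Reads in genes ranged from 11152625 to 15571367 a library in Panc1 and from 6846761 to 19070551 in A549, so that 3 reads, the limit that a count of 0 allows, came to 0.193 to 0.269 CPM (reads scaled to library size) in Panc1 and 0.157 to 0.438 in A549. KLF10 itself stood at 139.7, 136.7 and 130.5 CPM in Panc1 siCont and at 82.88, 80.67 and 77.14 after siKLF10, with no overlap. In A549 it stood at 112.9 and 109.4 CPM in siCont against 103.4 and 108 in the libraries labelled siKLF10 (log2 difference -0.05 ± 0.0802 SE, adjusted p = 0.743), and under TGFβ at 175.1 and 173.6 against 147.4 and 143.5 (-0.29 ± 0.0779, adjusted p = 0.00775). That last call was lost without TGFb A (adjusted p = 0.0624) or TGFb B (0.057). The A549 libraries are accordingly called the libraries labelled siKLF10. The summed level of 7 basal keratinocyte markers was 36.3 to 98.2 CPM in Panc1 siCont, highest in library A, and 11.8 to 21.6 in the other Panc1 groups, with KRT6B at 0 throughout. In A549 the same sum was 2.38 to 3.05 CPM in siCont, 15.7 to 16.5 in TGFb, 5.38 to 6.1 in the libraries labelled siKLF10 and 36.3 to 39.7 with both. The part of these markers in the results below was not tested in either line. For Panc1, each result that uses siCont was also computed without library A. That run cannot test the part of the markers, since every siCont library lay above all other Panc1 libraries in this sum. The labelled tissues were also read against marker lists. The 6 pancreatic duct markers summed to 1080 to 1200 CPM in Panc1 siCont, 656 to 680 in TGFb, 1070 to 1140 in siKLF10 and 937 to 1050 with both. Their A549 sum was 6650 to 6830, 5770 to 5830, 6790 to 7480 and 4940 to 5390 CPM in the same order. The 5 lung epithelial markers were near 0 in A549 siCont, at a sum of 1.79 to 1.93 CPM with 2 of them, one being SFTPB, at 0. The 5 haematopoietic markers summed to 263 to 283 CPM in Panc1 siCont, 156 to 171 in TGFb, 70.5 to 95.6 in siKLF10 and 38 to 53.9 with both, with 2 to 4 of them at 0 in a group. In A549 that sum was 24.7 to 25.3, 48.6 to 51.2, 11.9 to 14.6 and 30.9 to 33.1 CPM in the same order. Nearly all of it was CD68, a lysosomal protein (a mean of 269.8 CPM in Panc1 siCont and 43.98 with both), while CD3E was at 0 in every library and PTPRC did not exceed 0.2691 CPM. The 6 fibroblast markers summed to 59.4 to 61.9 CPM in Panc1 siCont and 94.1 to 96.5 in TGFb, and to 1.44 to 1.78 and 8.49 to 11.5 in A549. The 4 endothelial markers stayed at or below 0.874 CPM in every library. The part of these lists in the results was not tested.

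The stretches just upstream of the starts of BMF and BCL2L11 are shown because the TGFβ response of both BH3-only genes differed in the A549 libraries labelled siKLF10, and BMF is the gene the choice started from. They come from RefSeq (GRCh38.p14), which matched 8 of the 10 members with 14 start sites. Each run is the 250 bases before a start, read on the gene's strand, 5′ to 3′. BMF has 2 annotated starts, at the ends of chr15:40108880-40109129 and chr15:40106967-40107216 on the minus strand, and BCL2L11 has 1, after chr2:111120664-111120913 on the plus strand.
BMF first start: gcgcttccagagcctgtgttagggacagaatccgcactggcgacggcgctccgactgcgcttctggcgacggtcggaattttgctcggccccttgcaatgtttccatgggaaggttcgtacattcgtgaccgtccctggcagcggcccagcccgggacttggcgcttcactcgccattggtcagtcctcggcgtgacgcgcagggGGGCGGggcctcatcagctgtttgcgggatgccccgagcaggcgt
BMF second start: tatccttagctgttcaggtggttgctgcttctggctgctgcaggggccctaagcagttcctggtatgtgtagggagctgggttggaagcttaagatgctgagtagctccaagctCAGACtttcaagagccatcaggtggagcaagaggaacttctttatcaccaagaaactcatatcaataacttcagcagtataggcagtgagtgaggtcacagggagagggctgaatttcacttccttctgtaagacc
BCL2L11: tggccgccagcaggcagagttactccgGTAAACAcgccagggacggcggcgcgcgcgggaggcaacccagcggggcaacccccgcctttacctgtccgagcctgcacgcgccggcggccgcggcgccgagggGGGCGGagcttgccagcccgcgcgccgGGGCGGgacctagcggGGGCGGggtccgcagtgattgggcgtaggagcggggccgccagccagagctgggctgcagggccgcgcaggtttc
Capitals mark matches to 5 short motifs read on both strands: CAGAC (SMAD box), GGGCGG (GC box), CACCC (a box that Krüppel-like factors bind), GTAAACA (FOXO core) and TGANTCA (AP-1 site). No 2 matches overlapped in these windows. The first BMF window held 1 GC box, the second held 1 SMAD box, and the BCL2L11 window held 3 GC boxes and 1 FOXO core. Among all 35116 windows of the same length, 42.6% held a GC box, 38% a SMAD box, 54.7% a CACCC box, 2.98% a FOXO core and 6.57% an AP-1 site. A match is a string of letters in this window and says nothing of binding.

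**Figure D1:**
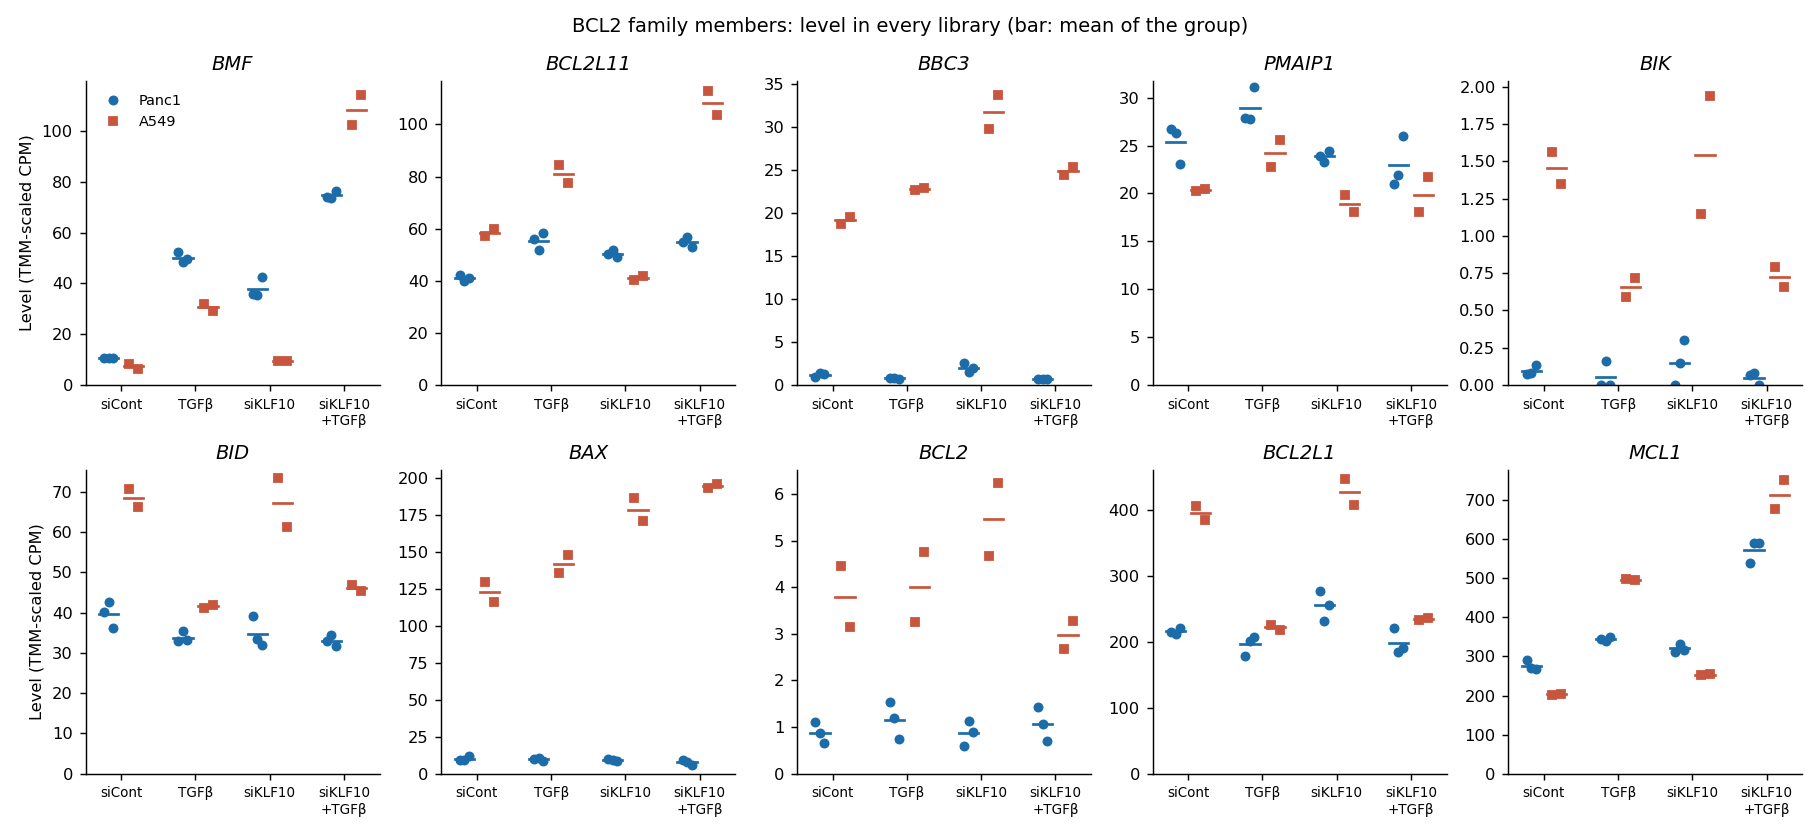
Level of each of the 10 BCL2 family genes in every library (y axis, TMM-scaled CPM, from 0), by group (x axis), for Panc1 (circles, 3 libraries a group) and A549 (squares, 2 a group); bars are group means. BMF rises from 10.57 to 10.68 CPM in Panc1 siCont to 73.48 to 76.4 with siKLF10+TGFb, and from 6.458 to 8.247 to 102.4 to 114.3 in A549.

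How many members changed is given first, with a call meaning a Benjamini-Hochberg adjusted p under 0.05 in edgeR's quasi-likelihood test over all genes, and beside each count the percentage of all tested genes called in that direction. TGFβ against siCont called 3 of 9 members higher and 1 lower in Panc1, where 14% of all genes were called higher and 15.1% lower. In A549 the same comparison called 6 of 10 higher and 2 lower, against 24.2% and 23.5% of all genes. Without A549 siCont B or TGFb B, 5 of these 8 members were called. The median log2 change of the members was 0.18 in Panc1 and 0.29 in A549, where that of all tested genes was -0.0049 and -0.011.

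Under TGFβ, the siKLF10 libraries against the siCont libraries had 2 of 9 members higher and 1 lower in Panc1 (all genes: 21.1% higher, 20.6% lower). In A549 the count was 4 of 10 higher and 0 lower, where 14.4% and 13.9% of all genes were called. By DESeq2 the count of lower members was also 0, and at an unadjusted p under 0.05 it was 1, PMAIP1. Without TGFβ, the A549 libraries labelled siKLF10 had 3 of 10 members higher and 1 lower than siCont, with 9.57% and 9.96% of all genes called.

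The Panc1 contrast that served to choose BMF had 5 of 9 higher and 0 lower (0 by DESeq2, 1 at an unadjusted p under 0.05), with 17.3% and 18.3% of all genes called, and nothing is read from that count. Without siCont B it was 3.

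With siKLF10 in both arms, TGFβ called 2 of 9 members higher and 2 lower in Panc1 (all genes: 22.6% and 22.3%) and 3 of 10 higher and 4 lower in A549 (26.5% and 26.8%). A change in the TGFβ response with siKLF10, the interaction, was called for 2 of 10 members upwards and 1 downwards in A549, where 3.26% and 3.23% of all genes were called. In Panc1 the interaction contains the contrast that chose BMF. Its count was 1 higher and 1 lower of 9, with 2.56% and 1.86% of all genes called, and is given without a test for any member.

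BMF rose with TGFβ in both lines, and of the members it had the largest rise in each of the 4 comparisons that add TGFβ. In Panc1 it stood at 10.57, 10.68 and 10.59 CPM in siCont and at 52.38, 48.56 and 49.45 in TGFb. All treated libraries lay far above all controls. The log2 change was 2.23 ± 0.0889 (SE, adjusted p = 6.89e-15), a 4.69-fold rise that ranked 91 among the 13218 genes tested. In bulk RNA, more RNA per cell cannot be told apart from more cells that express the gene. Without siCont A it was 2.23 as well. This comparison shares its siCont libraries with the contrast that chose BMF.

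After siKLF10 alone, BMF in Panc1 stood at 35.84, 35.33 and 42.68 CPM, between siCont and TGFb with no overlap on either side. The log2 difference from siCont was 1.84, a 3.58-fold higher level and rank 36 among 13218 genes, which is the value that placed BMF among the members. With siKLF10 and TGFβ together BMF reached 74.01, 73.48 and 76.4 CPM, the highest of the 4 groups. That was 0.58 ± 0.074 above TGFb alone on the log2 scale (adjusted p = 1.96e-06) and 0.97 ± 0.076 above siKLF10 alone (adjusted p = 4.81e-10). The latter shares its siKLF10 libraries with the contrast that chose the gene. The rise over TGFb alone ranked 808 among the 13218 genes. The joint level was below the sum of the 2 separate changes (interaction -1.26, given without a test).

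In A549 the pattern of BMF over the 4 groups was another. It stood at 8.247 and 6.458 CPM in siCont and at 9.356 and 9.565 in the libraries labelled siKLF10, a log2 difference of 0.37 ± 0.16 that did not pass (adjusted p = 0.108). TGFβ took it to 31.93 and 29.2 CPM (2.12 ± 0.134, adjusted p = 1.24e-11), a rise that ranked 528 among the 14124 genes tested. In the libraries labelled siKLF10 with TGFβ, BMF stood at 102.4 and 114.3 CPM, above every other library of either line. This was 1.79 ± 0.103 above TGFb (adjusted p = 6.81e-11), a 3.47-fold difference that ranked 105 among the 14124 genes. Against the libraries labelled siKLF10 without TGFβ it was 3.54 ± 0.121 (adjusted p = 3.28e-16), or 11.6-fold. The interaction was 1.42 ± 0.191 (adjusted p = 8.84e-05), so that in A549 the joint level was higher than the separate changes added, and it lay between 1.21 and 1.57 in every alternative run.

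Between the lines, the TGFβ rise of BMF differed by 0.19 ± 0.169 on the log2 scale (Panc1 minus A549, adjusted p = 0.431), and leaving out A549 siCont A brought that difference to -0.01. It too shares its Panc1 siCont libraries with the contrast that chose BMF. The siKLF10 difference under TGFβ was 1.25 smaller in Panc1 than in A549 (-1.25 ± 0.129, adjusted p = 1e-08). KLF10 fell more in Panc1 than in A549 in those same libraries (-0.94 ± 0.0593 against -0.29 ± 0.0779, a difference of -0.69 ± 0.0971, adjusted p = 3.33e-06), and the relation of one to the other was not tested. Without TGFβ the siKLF10 difference of BMF was 1.49 larger in Panc1, given without a test since it contains the contrast that chose the gene.

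**Figure D2:**
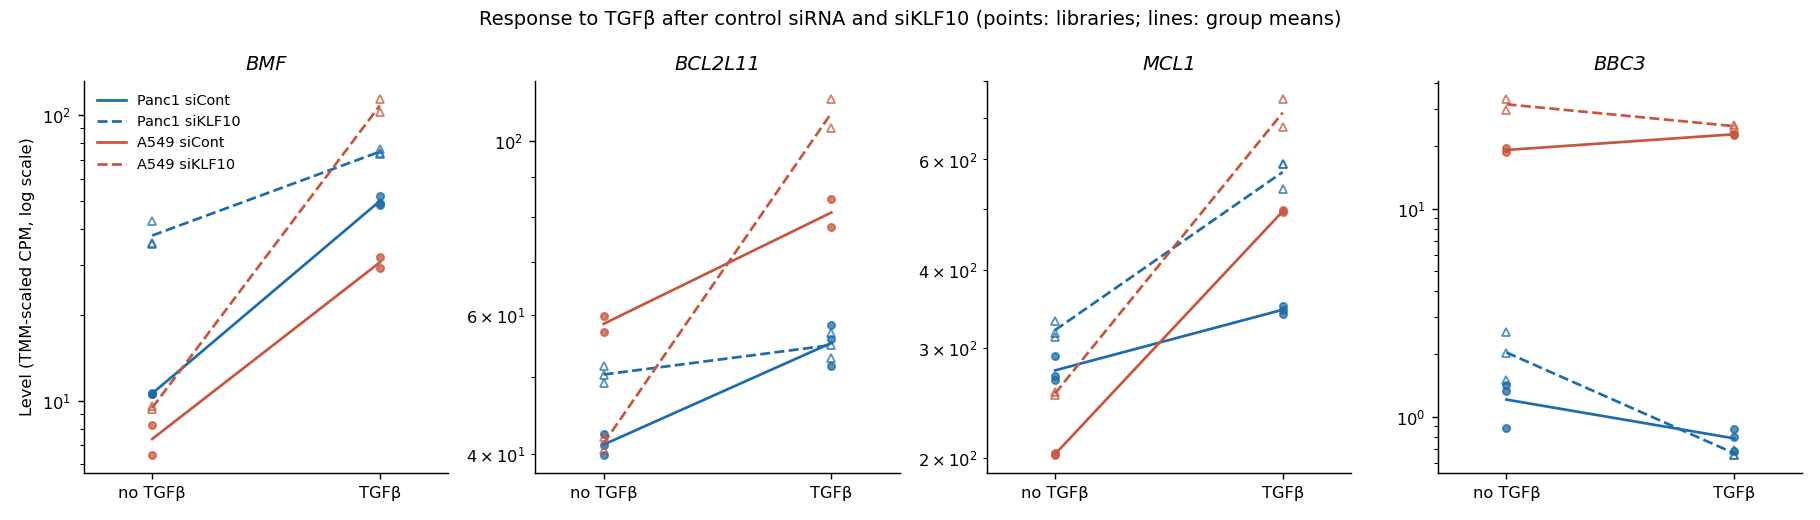
Levels of BMF, BCL2L11, MCL1 and BBC3 (y axis, TMM-scaled CPM, log scale) without and with TGFβ (x axis), after control siRNA (filled points, solid lines) and siKLF10 (open points, dashed lines) in Panc1 and A549; points are libraries and lines join group means. For BMF the lines draw together under TGFβ in Panc1 and apart in A549 (interaction -1.26 and 1.42 on the log2 scale).

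The genes whose log2 CPM followed BMF most closely over the 12 Panc1 libraries, of 10597 genes ranked, were CDH6 (a cadherin, Pearson r = 0.986), ARRDC3 (an arrestin-domain protein, 0.98), EOMES (a T-box factor, 0.979), RBMS2 (an RNA-binding protein, 0.977) and EPHA4 (an ephrin receptor, 0.976). CDH6 had mean levels of 10.3, 31.3, 26.3 and 37.2 CPM in siCont, TGFb, siKLF10 and siKLF10+TGFb, the same order as BMF. The most opposite were BCL6 (a transcriptional repressor, r = -0.987), PTPN1 (a tyrosine phosphatase, -0.979) and TNFRSF21 (a death-domain receptor, -0.972). BCL6 fell from 30.8 CPM in siCont to 17.3, 19.2 and 14.8 in the 3 other groups in that order. These likenesses describe 12 libraries in 4 groups that share their treatments.

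BCL2L11, which encodes BIM, an activator of BAX, rose modestly with TGFβ in both lines. In Panc1 it stood at 42.41, 39.83 and 40.98 CPM in siCont and at 55.88, 51.68 and 58.35 in TGFb (0.42 ± 0.0691, adjusted p = 4.96e-05). Its siKLF10 libraries lay at 50.29, 51.75 and 49.24 CPM and those with both at 54.97, 56.95 and 52.96, so the 2 groups with TGFβ overlapped. The interaction there was -0.30, given without a test.

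A549 showed the opposite order for siKLF10. BCL2L11 stood at 57.13 and 59.83 CPM in siCont, and at 40.42 and 42 in the libraries labelled siKLF10, where it fell by 0.48 on the log2 scale (SE 0.0962, adjusted p = 0.0012). With TGFβ it rose to 84.35 and 77.67 CPM (0.55 ± 0.0914, adjusted p = 3.82e-05), and with both to 113 and 103.7 CPM. The latter was 0.39 ± 0.0885 above TGFb (adjusted p = 0.00236) and 1.41 ± 0.0936 above the libraries labelled siKLF10 (adjusted p = 2.43e-11). The siKLF10 difference thus changed sign with TGFβ, with an interaction of 0.87 ± 0.131 (adjusted p = 0.000307). Under TGFβ it was smaller in Panc1 than in A549 by 0.42 (-0.42 ± 0.11, adjusted p = 0.00546). Without TGFβ it was 0.80 larger in Panc1, a value that contains the contrast used for the choice and is not tested.

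BBC3 encodes PUMA, a BH3-only protein best known as a p53 target, and was scarce in Panc1. Levels there were 0.8805, 1.414 and 1.333 CPM in siCont, 0.8755, 0.8012 and 0.6849 in TGFb, 2.566, 1.506 and 2.036 in siKLF10, and 0.6544, 0.6546 and 0.6945 with both. The 185 reads in all 12 libraries limit each of these values. TGFβ after siKLF10 gave a fall of 1.59 on the log2 scale (-1.59 ± 0.317, adjusted p = 0.000298), with no overlap between the groups, while siCont and TGFb did not differ past the test. The siKLF10 group was 0.74 above siCont, as a description.

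In A549, BBC3 stood at 18.72 and 19.55 CPM in siCont and rose to 29.74 and 33.69 in the libraries labelled siKLF10 (0.75 ± 0.117, adjusted p = 9.52e-05). TGFb libraries lay at 22.66 and 22.87 CPM (0.32 ± 0.122, adjusted p = 0.0347) and those with both at 24.47 and 25.34. The TGFβ call did not hold: the adjusted p was 0.0815 to 0.157 without any 1 of the 4 libraries compared, and 0.124 by DESeq2. Among the libraries labelled siKLF10, TGFβ lowered the gene by 0.32 (-0.32 ± 0.113, adjusted p = 0.0202), a call lost without siKLF10 B (-0.23, adjusted p = 0.173) and by DESeq2 (0.118). The interaction of -0.65 ± 0.167 (adjusted p = 0.0214) had an adjusted p of 0.0701 to 0.108 without either siCont library, either TGFb library or siKLF10 B. BBC3 shares exon sequence with the microRNA genes MIR3190 and MIR3191, which have rows of their own in the count tables, so reads of the overlap may not be counted for it.

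PMAIP1 encodes NOXA, which binds MCL1 and promotes its breakdown, and it changed little. In Panc1 the lowest of its 12 libraries was 20.94 CPM and the highest 31.09. Under TGFβ the siKLF10 libraries were lower, at 20.94, 21.93 and 26.04 CPM against 27.87, 27.8 and 31.09 (-0.33 ± 0.0935, adjusted p = 0.0068), with no overlap. In A549 its 8 libraries spanned 18.02 to 25.6 CPM, and the same comparison passed only without siKLF10+TGFb B (adjusted p = 0.0304). TGFβ gave 22.76 and 25.6 CPM against 20.28 and 20.45 in siCont (0.31 ± 0.127, adjusted p = 0.0476), and that call was lost without any 1 of these 4 libraries (adjusted p 0.0573 to 0.268).

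BID, which caspase cleavage turns into an activator of BAX, fell with TGFβ in A549. Its level went from 70.8 and 66.29 CPM in siCont to 41.29 and 41.85 in TGFb (-0.65 ± 0.0991, adjusted p = 1.14e-05). The libraries labelled siKLF10 had 73.44 and 61.27 CPM without TGFβ and 46.96 and 45.44 with it (-0.54 ± 0.0962, adjusted p = 7.1e-05), so the 4 libraries with TGFβ lay below the 4 without. In Panc1 the fall was smaller, from 40.06, 42.73 and 36.31 CPM to 32.98, 35.34 and 33.15 (-0.24 ± 0.0855, adjusted p = 0.0388). It was lost without siCont A, siCont B or any of the 3 TGFb libraries (adjusted p 0.0501 to 0.188) and by DESeq2 (0.0661). The TGFβ response differed between the lines by 0.49 ± 0.136 (Panc1 minus A549, adjusted p = 0.00514).

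BIK was near or below the limit of detection in Panc1, with 0 to 4 reads a library. A549 had 21 and 15 reads in siCont, 6 and 5 in TGFb, 13 and 14 in the libraries labelled siKLF10, and 8 and 12 with both. As CPM these were 1.56 and 1.345, 0.5912 and 0.7191, 1.147 and 1.941, and 0.7926 and 0.6554. The libraries with TGFβ lay below those without, and the log2 difference of TGFb from siCont was -1.10 ± 0.487. BIK passed the A549 filter only through its libraries without TGFβ, so its TGFβ differences are given as a description without a test. Between the libraries labelled siKLF10 with and without TGFβ the difference was -1.03 ± 0.444.

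BAX, the effector among the members, passed no test within Panc1 and was higher in the A549 libraries labelled siKLF10 than in siCont. Its 12 Panc1 libraries spanned 5.73 to 11.86 CPM. There siKLF10+TGFb fell below TGFb at an adjusted p of 0.0236 without siKLF10+TGFb A and of 0.0443 without TGFb C, and below siKLF10 at 0.0433 without siKLF10+TGFb A. In A549 it stood at 130 and 116.2 CPM in siCont and at 186.5 and 171.3 in the libraries labelled siKLF10 (0.57 ± 0.0828, adjusted p = 4.53e-05). Under TGFβ the values were 136.2 and 148.1 against 193.2 and 196.3 CPM (0.43 ± 0.0825, adjusted p = 0.000498). TGFβ alone gave 0.28 ± 0.0836 (adjusted p = 0.00924), lost without siCont B (0.157) or TGFb B (0.123). Under TGFβ the siKLF10 difference was smaller in Panc1 than in A549 by 0.79 (-0.79 ± 0.171, adjusted p = 0.00103). Without TGFβ it was -0.68, given without a test.

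MCL1, a guardian, rose with TGFβ in both lines. Panc1 had 290.9, 270.9 and 266.6 CPM in siCont, 345.4, 340.3 and 349.8 in TGFb, 312.5, 331.7 and 316.5 in siKLF10, and 538.8, 590.1 and 589.6 with both. No library without both treatments exceeded 349.8 CPM. TGFβ alone raised it by 0.31 ± 0.0571 (adjusted p = 0.000172), and adding siKLF10 under TGFβ raised it by a further 0.74 ± 0.0569 (adjusted p = 1.3e-09). TGFβ after siKLF10 gave 0.84 ± 0.0571 (adjusted p = 5.3e-11). The joint level was 0.52 above the separate changes added, and the siKLF10 group was 0.21 above siCont, both given without a test.

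**Figure D3:**
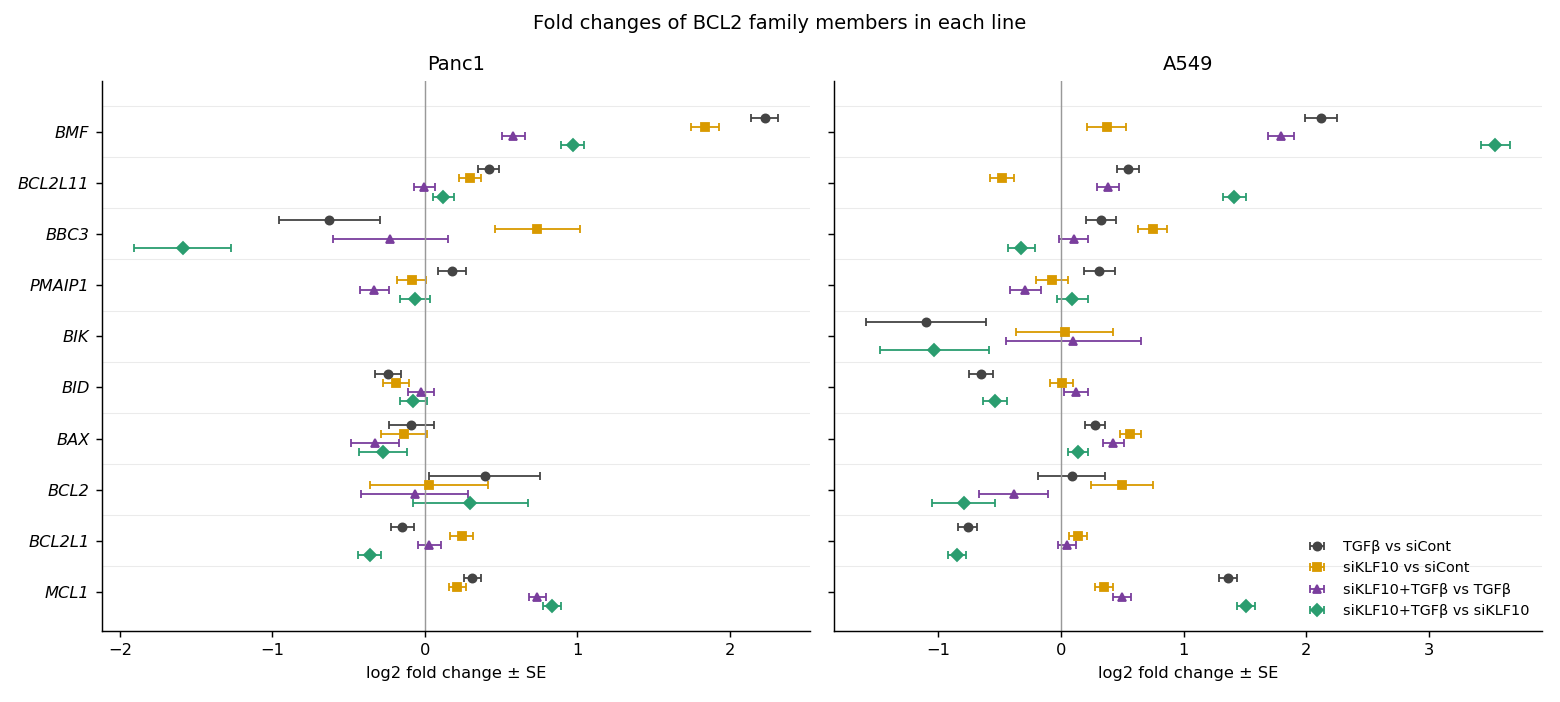
Log2 fold changes of the members (x axis, with SE as bars) in 4 comparisons in Panc1 (left, 9 members) and A549 (right, 10 members). Values of Panc1 siKLF10 against siCont are shown as a description without a test, and BMF was chosen by its value there (1.84). BMF and MCL1 lie to the right of 0 in the other comparisons too, although BMF in the A549 libraries labelled siKLF10 without TGFβ (0.37) did not pass the test. BCL2L1 lies to the left of 0 wherever TGFβ was added, although in Panc1 after control siRNA it did not pass the test.

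A549 MCL1 stood at 202.2 and 203.6 CPM in siCont and at 497.3 and 494.3 in TGFb, a rise of 1.36 ± 0.0742 (adjusted p = 9.63e-13). The libraries labelled siKLF10 had 252.2 and 255.2 CPM (0.35 ± 0.074, adjusted p = 0.0019) and those with both had 675.9 and 749.9. The difference under TGFβ was 0.50 ± 0.072 (adjusted p = 2.41e-05), and TGFβ in the libraries labelled siKLF10 gave 1.51 ± 0.074 (adjusted p = 1.49e-13). No departure from adding the 2 changes was called in A549 (interaction 0.15 ± 0.103, adjusted p = 0.479). The TGFβ rise was smaller in Panc1 than in A549 by 0.97 (-0.97 ± 0.0967, adjusted p = 8.49e-10).

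BCL2L1, the gene of the guardian BCL-xL, moved against MCL1 in A549. It fell from 406.8 and 386.1 CPM in siCont to 226.5 and 218.2 in TGFb (-0.76 ± 0.0743, adjusted p = 1.75e-08), and from 448.4 and 408.5 to 233.7 and 236.3 in the libraries labelled siKLF10 (-0.85 ± 0.0737, adjusted p = 2.28e-09). No library with TGFβ overlapped one without. In Panc1 siCont stood at 215.1, 212.3 and 221.9 CPM and TGFb at 178.7, 202.2 and 208.4, a difference that did not pass the test, and siKLF10 at 278.2, 232.5 and 257 against 221.6, 185.4 and 190.9 with TGFβ (-0.36 ± 0.0761, adjusted p = 0.000528). The siKLF10 group was 0.24 above siCont, as a description. The TGFβ response differed between the lines by 0.69 ± 0.116 (Panc1 minus A549, adjusted p = 1.49e-05).

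BCL2, the founding guardian, was low in both lines. Panc1 libraries held 0.5987 to 1.532 CPM, with no comparison past the test. In A549 the levels were 4.458 and 3.139 CPM in siCont, 3.252 and 4.746 in TGFb, 4.678 and 6.238 in the libraries labelled siKLF10, and 2.675 and 3.277 with both. The last 2 groups differed (-0.79 ± 0.258, adjusted p = 0.0132), but not without siKLF10 B (-0.60, adjusted p = 0.121) or by DESeq2 (0.0864).

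**Figure D4:**
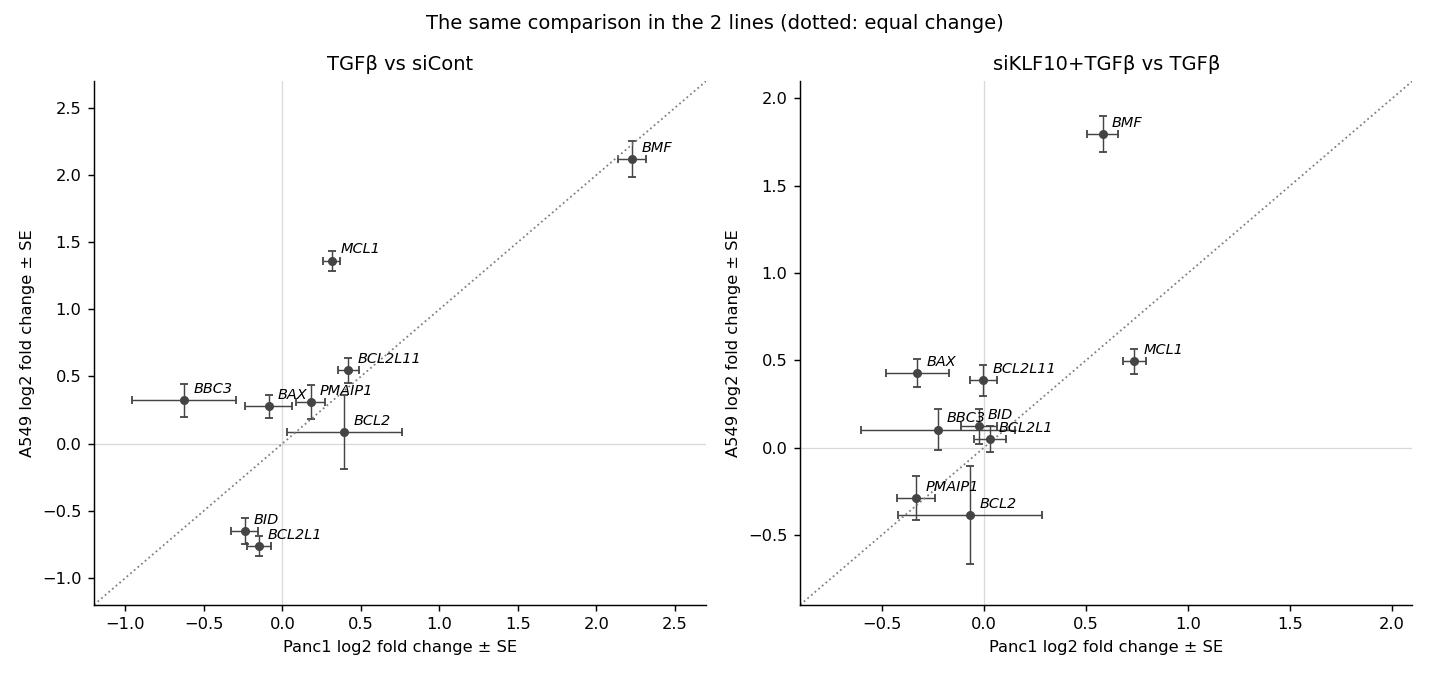
Log2 fold change of each member in A549 (y axis) against Panc1 (x axis), with SE as bars, for TGFβ against siCont (left) and siKLF10+TGFβ against TGFβ (right); the dotted line marks equal change. BMF lies near the line for TGFβ (2.23 and 2.12) and far above it for siKLF10 under TGFβ (0.58 and 1.79), and MCL1 lies above it for TGFβ (0.31 and 1.36).

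Taking the responses line against line, the TGFβ effect was called larger in Panc1 for 2 of 10 members and smaller for 2, where 17.1% and 13.8% of all genes were. The 2 larger values belong to BCL2L1 and BID, which fell further in A549, and the smaller ones to MCL1 and BBC3. For BBC3 the difference was -0.87 ± 0.326 (adjusted p = 0.0405), and it was lost by DESeq2 (0.0625) and without siCont B, siCont C, TGFb B or TGFb C of Panc1 or any of the 4 A549 libraries (adjusted p 0.0539 to 0.119). The siKLF10 effect under TGFβ was larger in Panc1 for 0 members (1 by DESeq2 and 1 at an unadjusted p under 0.05, MCL1 both times) and smaller for 3, against 7.52% and 12.3% of all genes. Without TGFβ the counts were 2 and 1, against 8.59% and 8.65%, and nothing is read from them because the Panc1 side is the contrast that chose BMF.

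The 2 lines also started from different levels. In siCont, 3 members were higher in Panc1 and 7 lower, where 39% and 42.9% of all genes were called. BMF (0.52 ± 0.135, adjusted p = 0.000783), MCL1 (0.44 ± 0.0693, adjusted p = 6.29e-07) and PMAIP1 (0.32 ± 0.11, adjusted p = 0.00942) were higher in Panc1, the last not without A549 siCont A. The value for BMF shares its Panc1 siCont libraries with the contrast that chose the gene. BAX was lower by 3.58 (-3.58 ± 0.111, adjusted p = 1.34e-24), and BBC3 by 3.97 (-3.97 ± 0.174, adjusted p = 2.29e-20). BCL2 (-2.13 ± 0.316), BCL2L1 (-0.87 ± 0.08), BID (-0.79 ± 0.0908) and BCL2L11 (-0.51 ± 0.0799) were lower too, with adjusted p from 7.63e-12 to 7.08e-07. BIK, counted among the 7, was also lower (-3.79 ± 0.618). It passed the filter over both lines only through its A549 counts, so its value is given as a description without a test. Reads that fell in no gene were 33.6% to 36.9% of the reads placed in a gene, in no gene or ambiguously in Panc1 and 57.6% to 60.1% in A549, which cannot be told apart from the line.

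Of 12 other BCL2 family genes listed, 8 were tested in Panc1 and 9 in A549, and TGFβ called 0 higher (0 by DESeq2 and at an unadjusted p under 0.05) and 4 lower in Panc1 (all genes: 14% and 15.1%) and 3 higher and 2 lower in A549 (24.2% and 23.5%). BNIP3, a mitophagy receptor with a BH3-like domain, fell in both, from a mean of 33.3 to 16.5 CPM in Panc1 (-1.01 ± 0.0992, adjusted p = 2.94e-08) and from 47.1 to 23.2 in A549 (-0.94 ± 0.117, adjusted p = 7.58e-07). BCL2A1, a guardian, went the opposite way in the 2 lines. In A549 it rose from a mean of 3.22 ± 0.492 (SD, n = 2) to 47.9 ± 7.94 CPM (3.94 ± 0.178, adjusted p = 5.87e-14). In Panc1 it fell from 6.95 ± 1.62 (SD, n = 3) to 3.93 ± 0.826 CPM (-0.81 ± 0.229, adjusted p = 0.0104), a call lost without siCont B (0.0575) or TGFb B (0.0534). The difference between the lines was -4.67 ± 0.331 (adjusted p = 3.16e-11). The effectors BAK1 (0.84 ± 0.195, adjusted p = 0.00133) and BOK (0.78 ± 0.0999, adjusted p = 1.06e-06) rose in A549, and both responses differed from Panc1 (-0.96 ± 0.256 and -0.63 ± 0.164, adjusted p = 0.00401 and 0.00301).

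Under TGFβ, siKLF10 called 0 of these relatives higher in either line (0 by DESeq2, and at an unadjusted p under 0.05 1 in Panc1 and 0 in A549) and 3 lower in each, of 8 and 9 tested (all genes: 21.1% higher and 20.6% lower in Panc1, 14.4% and 13.9% in A549). BAD, a BH3-only protein that phosphorylation holds inactive, fell by 0.69 in Panc1 (-0.69 ± 0.124, adjusted p = 0.00013). BCL2A1 fell by 0.95 in A549 (-0.95 ± 0.133, adjusted p = 1.51e-05), from 47.9 to 24.8 CPM. In that line BMF and BCL2L11 rose in the same libraries.

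Downstream of the mitochondria, 11 of 12 listed apoptosome and caspase genes were tested in Panc1 and 12 in A549. TGFβ called 3 higher and 0 lower (0 also by DESeq2 and at an unadjusted p under 0.05) in Panc1 (all genes: 14% and 15.1%) and 5 higher and 1 lower in A549 (24.2% and 23.5%). APAF1, the scaffold that cytochrome c assembles into the apoptosome, rose in both (0.33 ± 0.0902 and 0.90 ± 0.0942, adjusted p = 0.00786 and 5.36e-08), though in Panc1 not without TGFb B (0.0508). CYCS, cytochrome c itself, fell in A549 (-0.77 ± 0.093, adjusted p = 6.79e-07), and FADD, a death receptor adaptor, rose there (0.56 ± 0.0997, adjusted p = 7.89e-05).

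With siKLF10 under TGFβ, 3 of these genes were called higher and 2 lower in Panc1 (all genes: 21.1% and 20.6%) and 2 higher and 1 lower in A549 (14.4% and 13.9%). DIABLO, which frees caspases from their inhibitors, rose in Panc1 (0.36 ± 0.0748, adjusted p = 0.000573), and APAF1 rose in A549 (0.44 ± 0.0886, adjusted p = 0.000773).

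All 6 listed inhibitors of caspases were tested in both lines. TGFβ called 2 higher and 1 lower in Panc1 and 3 higher and 0 lower (0 also by DESeq2 and at an unadjusted p under 0.05) in A549, beside 14% and 15.1% of all genes in Panc1 and 24.2% and 23.5% in A549. XIAP, which binds caspases directly, rose in both (0.43 ± 0.0734 and 0.64 ± 0.0942, adjusted p = 7.73e-05 and 7.87e-06). BIRC3 fell in Panc1 (-1.06 ± 0.0805, adjusted p = 5.1e-10), and BIRC2 (0.81 ± 0.0942) and CFLAR (0.40 ± 0.0885) rose in A549 (adjusted p = 2.64e-07 and 0.000806). Under TGFβ, the siKLF10 libraries had 3 higher and 1 lower in Panc1 (all genes: 21.1% and 20.6%), and those labelled so had 1 higher and 3 lower in A549 (14.4% and 13.9%). BIRC3 rose in Panc1 (0.43 ± 0.0821, adjusted p = 0.00023) and fell in A549 (-0.65 ± 0.128, adjusted p = 0.00222), a difference of 1.04 ± 0.154 (adjusted p = 1.63e-05). BIRC2 rose in Panc1 (0.42 ± 0.0647, adjusted p = 2.45e-05), while BIRC5 (-0.64 ± 0.0964) and CFLAR (-0.54 ± 0.0887) fell in A549 (adjusted p = 3.45e-05 and 9.43e-05).

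Of 13 upstream regulators and binding partners, TGFβ called 1 higher and 2 lower in Panc1 (all genes: 14% and 15.1%) and 2 higher and 3 lower in A549 (24.2% and 23.5%). FOXO1, of a forkhead family known to activate BCL2L11, rose in both lines, from a mean of 19.8 to 29.8 CPM in Panc1 (0.58 ± 0.086, adjusted p = 1.33e-05) and from 12.3 to 37.2 in A549 (1.66 ± 0.123, adjusted p = 1.89e-10). DDIT3 (CHOP), a stress factor, fell in Panc1 (-0.47 ± 0.104, adjusted p = 0.00135), and USP9X, a deubiquitinase that protects MCL1, fell in A549 (-0.69 ± 0.0797, adjusted p = 2.28e-07). With siKLF10 under TGFβ 6 rose and 2 fell in Panc1 (all genes: 21.1% and 20.6%) and 1 rose and 1 fell in A549 (14.4% and 13.9%). HUWE1, a ubiquitin ligase of MCL1, fell in Panc1 (-0.55 ± 0.0743, adjusted p = 4.23e-06), as did FOXO3 (-0.49 ± 0.0758, adjusted p = 2.05e-05), and DDIT3 rose (0.45 ± 0.105, adjusted p = 0.00169). DYNLL2, the light chain that tethers BMF, rose in A549 (0.70 ± 0.0981, adjusted p = 1.62e-05). TRIB3, a pseudokinase of the stress response, rose in the A549 libraries labelled siKLF10 without TGFβ (0.56 ± 0.0944, adjusted p = 0.000218).

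The 10 listed p53 targets, all tested in both lines, were read beside BBC3, BAX and PMAIP1, which p53 also induces. TGFβ called 2 higher and 3 lower in Panc1 (all genes: 14% and 15.1%) and 4 higher and 1 lower in A549 (24.2% and 23.5%). The cytokine GDF15 fell in both lines (-1.48 ± 0.16 and -2.25 ± 0.143, adjusted p = 5.95e-07 and 1.35e-11), while TP53I3, an oxidoreductase (0.63 ± 0.0645 and 1.71 ± 0.0862, adjusted p = 7.05e-08 and 2.54e-13), and CDKN1A, the cell cycle inhibitor p21 (0.45 ± 0.0824 and 1.35 ± 0.0829, adjusted p = 0.000185 and 7.91e-12), rose in both. Of these 3 members, BAX and BBC3 were higher in the A549 libraries labelled siKLF10 without TGFβ, and PMAIP1 was not called (-0.07 ± 0.129, adjusted p = 0.761). Under TGFβ only BAX was called there, not BBC3 (0.10 ± 0.118, adjusted p = 0.555) or PMAIP1 (-0.29 ± 0.125, adjusted p = 0.0906). Without TGFβ those libraries had 5 of 10 listed p53 targets higher and 0 lower than siCont (lower: 0 by DESeq2, 2 at an unadjusted p under 0.05). Of all genes, 9.57% and 9.96% were called. CDKN1A (1.34 ± 0.0827), BTG2 (0.93 ± 0.126) and AEN (0.53 ± 0.0899) led the listed targets, with adjusted p of 5.19e-10, 1.96e-05 and 0.000245. Under TGFβ, where 14.4% of all genes were called higher and 13.9% lower in A549 and 21.1% and 20.6% in Panc1, the libraries labelled siKLF10 had 4 higher and 1 lower in A549, among them CDKN1A (0.90 ± 0.0793), TP53I3 (0.53 ± 0.0801) and MDM2 (0.47 ± 0.0912), and 2 higher and 3 lower in Panc1, among them TP53I3 (1.03 ± 0.0611), GDF15 (-1.28 ± 0.211) and ZMAT3 (-0.70 ± 0.0765).

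Wherever both gave a value for a member, 5 of the authors' 6 deposited tables of comparisons had the same sign as the counts. The authors' deposited table for A549 TGFβ against siCont had the opposite sign for 4 of 10 members. There BCL2L1 has a log2 change of 0.74 (adjusted p = 2.07e-08) where the counts gave -0.76, BIK has 1.86 (adjusted p = 6.64e-08) where they gave -1.10, and BCL2L11 has -0.18 where they gave 0.55. BMF (0.73, with no adjusted p) and MCL1 (0.89, adjusted p = 1.8e-13) have the same sign in the authors' deposited table as in the counts. Over genes, 42.1% of the 6506 called from the counts had the opposite sign in that table (Pearson r = 0.153 across 13681 genes), against 0% to 0.197% in the other tables. All A549 TGFβ values above rest on the count tables.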

How the data were processed

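Poly(A) RNA of 20 libraries was sequenced with a directional kit, per the labels' protocols. The submitters' processing notes name TopHat, Bowtie2, HTSeq 0.6.0, DESeq2 and hg19, and no source used here states the strand setting. The deposited tables hold a whole-number count per gene. The authors' deposited comparison tables hold log2 fold changes and adjusted p-values, and for A549 siKLF10 against siCont a linear fold was read, per the file headers.

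Counts were tested with edgeR 4.0.16 in R 4.3.3 (robust quasi-likelihood test, TMM scaling, group means, a minimum count of 10 and total of 15). This covered 13218 genes in Panc1, 14124 in A549 and 15058 over both lines, with Benjamini-Hochberg adjustment over all genes. The test was tried on simulated counts for Panc1 TGFβ against siCont only, with 1 spread for all genes. A549, both lines together and the interactions were not simulated. The 5 summary lines, with the reads in no gene (33.6% to 36.9% in Panc1, 57.6% to 60.1% in A549), were left out. Alternatives were DESeq2 1.42.0, its size factors in edgeR, no filter, a replicate block and leaving out each library. Likeness to BMF was ranked on log2 CPM (prior count 2) of genes averaging at least 5 CPM. The members and gene lists were chosen with earlier results of these data known. Named were the members, KLF10, tested genes of the other BCL2 family list, at most 3 called genes of each other list per comparison (the largest changes among genes averaging at least 5 CPM), and the 5 genes most like and 3 most unlike BMF. BMF, BCL2L11, BBC3, BCL2L1 and MCL1 overlap exons of other genes in GENCODE, so their reads are uncertain there. Limits for a count of 0 cover counting error only. Some genes of the lists are not reported here.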

Additional observations from a re-analysis of the deposited data

Results flagged for a closer look

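These results stand out because the difference between 2 effects passed its own test. In A549 the TGFβ response differed between the libraries labelled siKLF10 and those with control siRNA for BMF (interaction 1.42 ± 0.191, adjusted p = 8.84e-05), BCL2L11 (0.87 ± 0.131, adjusted p = 0.000307) and BBC3 (-0.65 ± 0.167, adjusted p = 0.0214). The values for BMF and BCL2L11 kept their side of the threshold in every alternative run, and that for BBC3 did not.

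Between the lines, given as Panc1 minus A549, the TGFβ response differed for MCL1 (-0.97 ± 0.0967, adjusted p = 8.49e-10), BCL2L1 (0.69 ± 0.116, adjusted p = 1.49e-05), BID (0.49 ± 0.136, adjusted p = 0.00514) and BBC3 (-0.87 ± 0.326, adjusted p = 0.0405). The call for BBC3 was lost in 9 of 14 alternative runs. The effect of siKLF10 under TGFβ differed for BMF (-1.25 ± 0.129, adjusted p = 1e-08), BAX (-0.79 ± 0.171, adjusted p = 0.00103) and BCL2L11 (-0.42 ± 0.11, adjusted p = 0.00546). The lines also differ in how far KLF10 fell and in the share of reads in no gene, whose part in these differences was not tested.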

How the results depend on the processing

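Over the 11 comparisons that do not contain the contrast used to choose BMF, 54 of 107 member values were called. Of these, 45 were called under every alternative run, 9 were lost under at least one and 0 changed sign. A further 5, not among the 54, passed under at least one. Of all genes, 3.26% were called higher and 3.23% lower in the A549 interaction, the lowest shares among these 11 comparisons. The highest were 39% and 42.9%, for Panc1 siCont against A549 siCont, which gave 10 of the 54 calls. BIK is among these 10 and among the 45, although its value there is a description without a test. The further 5 also include BIK, for TGFβ in the A549 libraries labelled siKLF10, likewise only a description. Nothing about the members as a group is read from the pooled count. DESeq2 called fewer genes in A549: 1676 for siKLF10 against siCont (edgeR 2758), 2647 for siKLF10+TGFβ against TGFβ (3996) and 554 for the interaction (916). The cause was not tested.

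Leaving out 1 library at a time gave 5 to 6 called members for A549 TGFβ against siCont (8 with all, where 24.2% of all genes were called higher and 23.5% lower). For Panc1 siKLF10 against siCont it gave 3 to 5 (5 with all, beside 17.3% and 18.3% of all genes). That contrast chose BMF, and nothing is read from its counts of members. Called genes ranged from 349 (without siKLF10+TGFb B) to 1035 (without siKLF10+TGFb A) for the Panc1 interaction (584 with all). In A549 they ranged from 1326 to 1638 for siKLF10 against siCont, from 2237 (without TGFb A) to 5409 (without siKLF10+TGFb A) for siKLF10+TGFβ against TGFβ, and from 379 (without siCont B) to 2685 (without siKLF10+TGFb A) for the interaction. The line difference of the siKLF10 effect had 1570 to 2512 (2597 with all), and under TGFβ 1895 to 3321 (2979 with all). The uncalled line difference of the TGFβ effect on BMF ranged from -0.0080 (without A549 siCont A, a change of sign) to 0.35.

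In Panc1 no clear pairing by replicate letter was seen. Deviations from group means correlated at -0.16 to 0.31 over 18 same-letter pairs, and 3 of 12 libraries correlated best with their own letter. In A549 the correlation was -0.035 to 0.12 over 12 pairs, and 6 of 8 libraries correlated best with their own letter. With 2 libraries a group the deviations mirror each other, so this cannot decide whether the letters pair the A549 libraries. With the letter as a replicate block, 565 genes were called for the Panc1 interaction (584 without it) and 1026 for the A549 interaction (916 without it). No count of calls moved by over 1.5 times.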

Other observations

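The authors' deposited table for A549 TGFβ against siCont also differs from the counts for KLF10, with a log2 change of -0.21 where the counts gave 0.72 ± 0.0789, and for PMAIP1, with 1.56 where the counts gave 0.31. For BAX it lists -0.30 where the counts gave 0.28. In the authors' deposited table for A549 siKLF10+TGFβ against TGFβ, which uses the same TGFβ group, BMF has 1.67 (counts 1.79) and MCL1 has 0.47 (counts 0.50).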
